A study of Homo sapiens with 18 samples.

Results

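The response of the TNBC cell line SUM149PT to siRNA-mediated silencing of ASAP1 was set against the mean response of the cell lines BT549 and Hs578T, gene process by gene process. A response is the log2 value of a probe in siASAP1-transfected cells minus that in siCtrl-transfected cells of the same line, and the quantity reported is the response of SUM149PT minus the mean of the responses of BT549 and Hs578T, called the difference in response from here on. It was computed for the 10475 of 21111 probes that had a mean normalized count of at least 10 over the 18 libraries, and all 18 of 18 libraries entered the fit. A normalized count is a read count divided by the size factor of its library. A positive difference means that the siASAP1-to-siCtrl ratio was larger in SUM149PT, and a negative one that it was smaller.

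The study profiled 3 established lines grown from human triple-negative breast tumors, tumors that lack estrogen and progesterone receptors and HER2 amplification. Each line was transfected in 96-well plates with 50 nM of a pool of siRNAs against ASAP1 (siASAP1) or with control siRNA (siCtrl), which the methods describe as a pool of kinase siRNAs, and was lysed 72 h later. There were 6 groups of 3 libraries, and the methods call the 3 libraries of a group biological triplicates. RNA was measured by TempO-Seq, in which a pair of detector oligonucleotides anneals side by side on its target RNA in the lysate, is ligated and is counted by sequencing. All 6 groups share the transfection reagent INTERFERin, the siRNA dose and the time of collection. SUM149PT alone stands for the basal-like subtype, with BT549 and Hs578T as mesenchymal-like, so subtype cannot be told apart from this line. As 1 siRNA pool was used, an effect of the pool beside that on ASAP1 cannot be told apart from silencing. The libraries held between 4.63 and 12.5 M reads.

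ASAP1 is an Arf GTPase-activating protein that acts at focal adhesions and on membrane traffic, and binds actin regulators. Mesenchymal-like breast cancer lines have lost epithelial adhesion genes and express vimentin and transcription factors of the epithelial to mesenchymal transition (EMT), whereas basal-like lines keep keratins and E-cadherin. In dividing cells, histone and DNA replication genes are expressed in S phase and genes of the spindle and kinetochore in G2 and M phase, so that in a bulk lysate their level moves with the share of cells in these phases. Fewer cells of a kind and less RNA per cell cannot be told apart in such lysates.

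The marker genes fitted the labels in part. In the siCtrl libraries of SUM149PT the mean normalized count was 29530 for EPCAM, 12810 for KRT8 and 98.7 for CDH1 (E-cadherin), while in BT549 and Hs578T CDH1, GRHL2 and KRT5 were at 0 in all 6 siCtrl libraries. The more abundant SPARC probe had a mean of 12700 in BT549 and 14950 in Hs578T against 4.66 in SUM149PT, and the abundant VIM probe had means of 32100 and 151300 against 2622. Not all mesenchymal markers followed: CDH2 was higher in SUM149PT (1733) than in BT549 (325), and COL6A3 was at 472 in SUM149PT and 313 in BT549. ZEB1 was at 0 in the siCtrl libraries of SUM149PT and of BT549 and had a mean of 0.84 in Hs578T. The basal keratin KRT5 was low in SUM149PT as well, with a mean of 26.0 and a range from 0 to 42.9. The leukocyte gene PTPRC was at 0 in all 9 siCtrl libraries, and of the probes for the endothelial gene PECAM1 the abundant one reached 103 in SUM149PT.

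ASAP1 itself, measured with a single probe, had normalized counts of 282, 468 and 184 in the siASAP1 libraries of SUM149PT and 1087, 189 and 1314 in the siCtrl libraries. In BT549 the counts were 367, 730 and 783 against 1107, 967 and 944, and in Hs578T 782, 825 and 1261 against 1641, 1414 and 2697. All siASAP1 libraries of BT549 and of Hs578T thus lay below the siCtrl libraries of their line, while the library labelled SUM149PT siCtrl replicate 2 had an ASAP1 count within the range of the siASAP1 libraries. This library also stood apart over all probes, with the largest deviation from its group mean of the 18 libraries (root mean square 1.43 on the log2 scale) and a mean correlation of 0.759 with its replicates, so results are given with and without it. The difference in response of ASAP1 was -0.29 ± 0.70 (SE, limma, unadjusted p = 0.69), and without that library it was -1.17 (unadjusted p = 0.029, adjusted p = 0.17). It changed sign, to 0.04, 0.09 and 0.22, when SUM149PT siASAP1 replicate 3, siCtrl replicate 1 or siCtrl replicate 3 was left out.

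Over the whole table, few single probes passed the adjusted test, while the differences of several gene lists lay mostly on the same side of 0. No list was tested as a whole. At an adjusted p under 0.05, 22 of 10475 probes differed (0.210%), 10 with a higher and 12 with a lower response in SUM149PT. At an unadjusted p under 0.05, 440 probes (4.20%) were higher and 500 (4.77%) lower, 940 in all, where 524 would be expected by the 5% level alone. Set against BT549 alone 932 probes (8.90%) passed an unadjusted p of 0.05, against Hs578T alone 582 (5.56%), and between BT549 and Hs578T 270 (2.58%), with no adjusted call for the last. The SD of the response over probes was 1.15 in SUM149PT, 0.90 in BT549 and 0.71 in Hs578T. The largest deviations of replicates from their group mean were in SUM149PT too, with root mean squares of 0.84 to 1.43. They were 0.55 to 0.997 in BT549 and 0.60 to 0.94 in Hs578T. The fit used a spread shared by the lines for each probe, and the part of this scatter in the SDs and counts was not tested. Across probes, the response of SUM149PT had a Pearson's r of 0.183 with the mean of the other lines, over probes of the same 18 libraries. The comparisons against BT549 and against Hs578T share the SUM149PT libraries. Without the library labelled SUM149PT siCtrl replicate 2, 90 probes had an adjusted p under 0.05, and 20 of the 22 were among them, while 13.4% of all probes were higher and 10.2% lower at an unadjusted p under 0.05. With voom weights on the recovered reads, 1 of the 22 was called. Over 18 fits that each left out 1 library, the number of calls lay between 1 and 90. It was 1 without Hs578T siASAP1 replicate 1, siCtrl replicate 1 or siCtrl replicate 2, between 3 and 11 without any of 11 other libraries, 45 without SUM149PT siASAP1 replicate 2, and 18 and 20 without BT549 siCtrl replicate 1 and Hs578T siCtrl replicate 3. SNAI2 was called in 18 of 18, MUC16 and BOC in 14, CDCA5 in 13, RGS3 and NR3C2 in 12, and BEX3 in 10. FN1 was called in 8, GXYLT2, RND3 and S100A9 in 6, and KDELC2, BLM, MFAP2, GUSB, ANXA10 and AKR1C1 in 4. HIST1H2AE, THSD7A and SNAPIN were called in 3, and NRGN and MELK in 1. Scaling by library totals moved the median difference of all probes from 0.03 to 0.15 and the split to 555 higher and 399 lower probes.

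**Figure D1:**
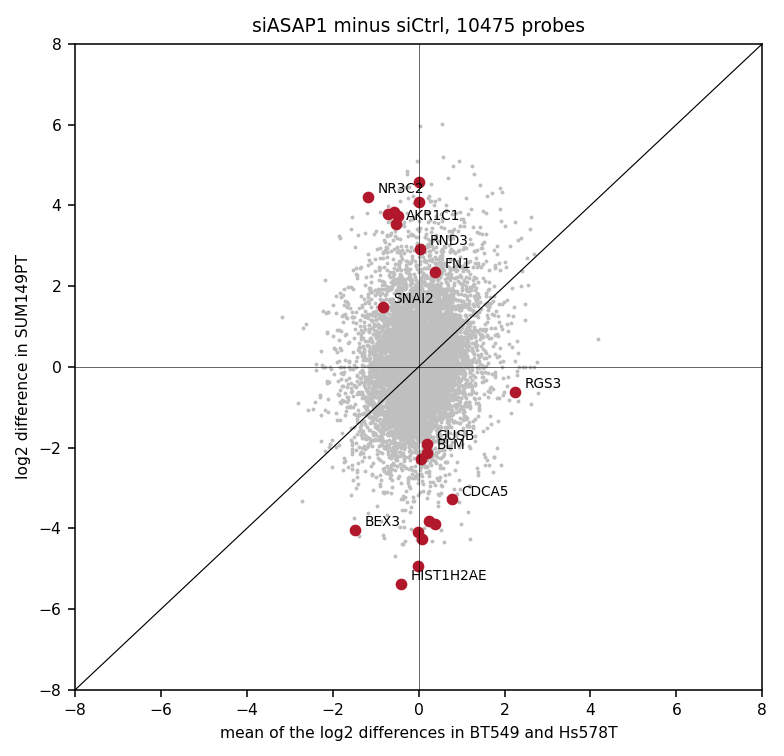
Response of each of the 10475 probes in SUM149PT (y axis, log2 difference siASAP1 minus siCtrl) against the mean response in BT549 and Hs578T (x axis, same unit), with the line of equality. Red points are the 22 probes with an adjusted p under 0.05. Among the red points, HIST1H2AE lies lowest on the y axis, at -5.38, and RGS3 farthest to the right, where SUM149PT was at -0.62.

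The process that stood apart most was the set of replication-dependent histones, whose mRNAs encode the core and linker histones laid down in S phase. Of 62 probes tested for this list, 32 had a lower response in SUM149PT at an unadjusted p under 0.05 (51.6%, against 4.77% of all probes) and 0 a higher one, and 59 of 62 differences were below 0. The median difference was -1.60, beside 0.03 for all probes. The median response was -1.85 in SUM149PT, -0.25 in BT549 and -0.18 in Hs578T. Within SUM149PT 48 of the 62 probes were lower at an unadjusted p under 0.05 (9.12% of all probes), while 1 was in BT549 (4.17% of all) and 0 in Hs578T (1.79% of all). These counts rest on a spread shared by the lines, although the largest deviations among replicates were in SUM149PT. Near-identical histone copies can share probes, so single members are uncertain and the probes are not independent of each other.

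**Figure D2:**
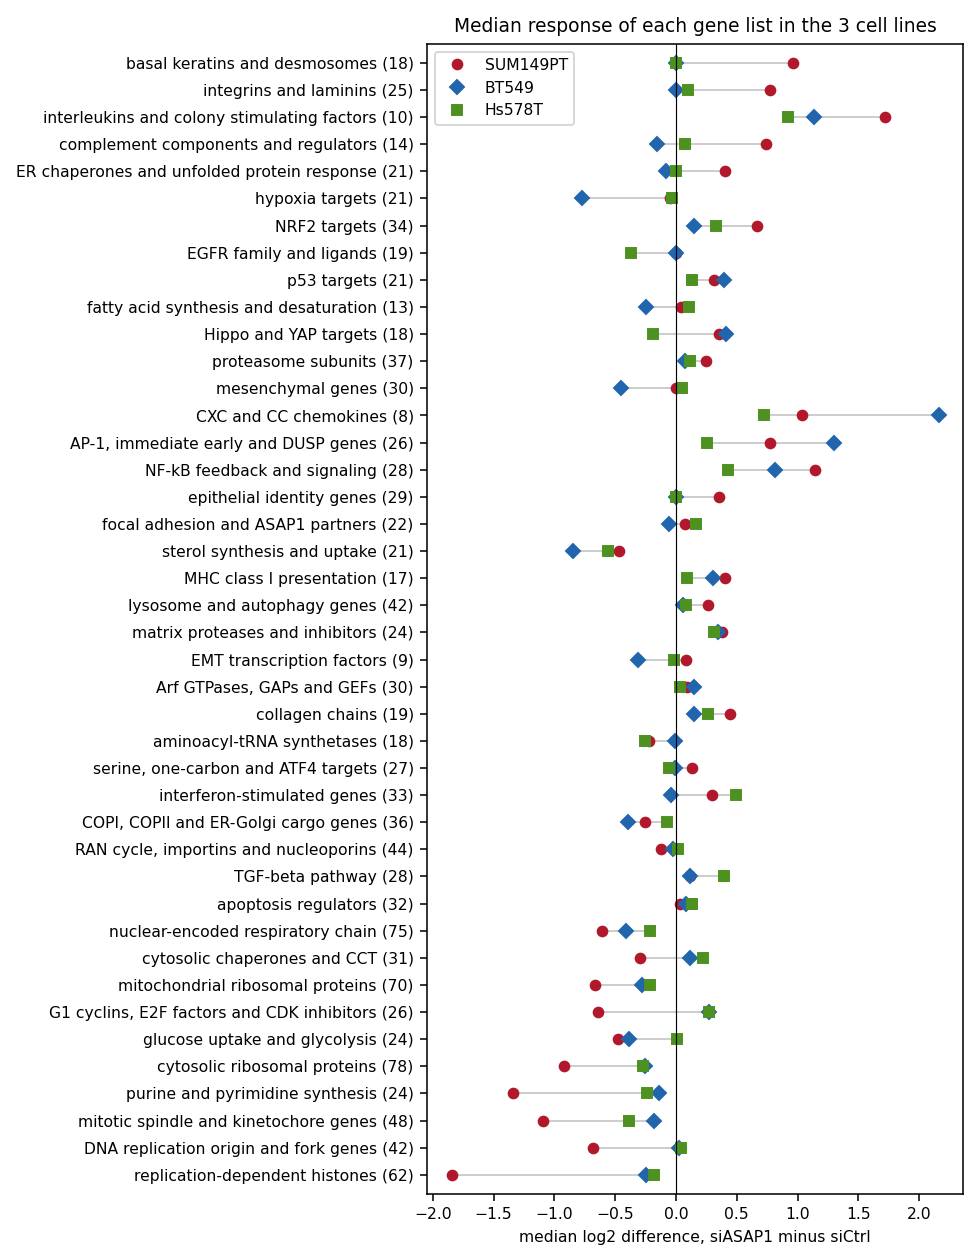
Median log2 difference (x axis, siASAP1 minus siCtrl) of 42 gene lists in SUM149PT, BT549 and Hs578T, ordered by the median difference in response, with the number of probes tested in brackets. Replication-dependent histones lie lowest, at -1.85 in SUM149PT against -0.25 and -0.18 in the other lines.

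All histone classes took part. The median difference in response was -2.13 for 5 linker histone H1 probes, -1.45 for 18 H2A probes, -1.70 for 15 H2B probes, -1.65 for 12 H3 probes and -1.59 for 12 H4 probes. Histone genes outside the replication-dependent clusters, chosen after the values of the list were seen, showed a smaller difference of the same sign, with a median of -1.17 over 9 probes (H2AFX and CENPA are among the genes of this group), of which 9 were below 0 and 2 had an unadjusted p under 0.05. By contrast, 6 probes for factors that process or transcribe histone mRNA, such as SLBP and NPAT, had a median of 0.15, and 0 passed an unadjusted p of 0.05.

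HIST1H2AE, which encodes a histone H2A, was the histone with an adjusted p under 0.05. Its normalized counts were 0, 6.41 and 0 in siASAP1 and 93.0, 47.4 and 116.7 in siCtrl libraries of SUM149PT. In BT549 they were 12.4, 29.3 and 40.2 against 42.4, 21.4 and 15.4, and in Hs578T 58.9, 24.9 and 25.6 against 60.8, 45.7 and 85.7. The groups of SUM149PT were far apart, while those of BT549 and of Hs578T overlapped. The difference in response was -4.96 ± 0.95 (SE, limma adjusted p = 0.045), and it lay between -5.92 and -4.48 when each library was left out in turn. It was called in 3 of those 18 fits.

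HIST1H3F, a histone H3 gene with far more reads, had counts of 925, 2176 and 1185 in siASAP1 against 7294, 5816 and 6835 in siCtrl libraries of SUM149PT. Its counts were 2295, 3103 and 2133 against 4723, 2684 and 2922 in BT549, and 3279, 2504 and 4194 against 4935, 3907 and 5930 in Hs578T. The groups were separated in SUM149PT and overlapped in both other lines. The difference was -1.81 ± 0.41 (SE, limma, unadjusted p = 0.00042, adjusted p = 0.12). HIST1H2BE followed with -4.33 ± 1.00 (SE, limma adjusted p = 0.12), with counts of 10.6, 57.7 and 15.8 against 123, 117.5 and 169 in SUM149PT, and at most 14.7 in any library of the other lines.

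The list as a whole was read in every library, by the mean of its log2 values. In SUM149PT this mean was 6.94, 8.52 and 7.45 in siASAP1 and 9.74, 8.89 and 9.68 in siCtrl libraries. In BT549 it was 8.16, 8.91 and 8.30 against 9.28, 8.35 and 8.40, and in Hs578T 8.56, 8.46 and 8.53 against 8.94, 8.54 and 8.45. The groups of SUM149PT did not overlap, but replicate 2 of either group lay toward the other, and BT549 siCtrl replicate 1 was well above the other siCtrl libraries of BT549. Without the library labelled SUM149PT siCtrl replicate 2, 44 of 62 probes were lower, in a fit with 10.2% of all probes lower, and the median was -1.90. Over the 18 fits with 1 library left out, the median lay between -2.06 and -1.17, and the number of lower probes between 16 (without SUM149PT siASAP1 replicate 1) and 46, with 21 without SUM149PT siCtrl replicate 1 or 3.

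The promoters of the leading histone and mitotic genes are printed because both lists had lower levels in siASAP1 than in siCtrl libraries of SUM149PT. The stretches are the 150 bases before the annotated start of each gene, read 5′ to 3′ on the gene's strand from RefSeq on GRCh38.p14. The histone genes are HIST1H2AE (now H2AC8, chr6:26216771-26216920, plus strand), HIST1H3F (now H3C7, chr6:26250636-26250785, minus strand) and HIST1H2BE (now H2BC6, chr6:26183611-26183760, plus strand). Capitals mark CCAAT and TATAAA on either strand.
HIST1H2AE: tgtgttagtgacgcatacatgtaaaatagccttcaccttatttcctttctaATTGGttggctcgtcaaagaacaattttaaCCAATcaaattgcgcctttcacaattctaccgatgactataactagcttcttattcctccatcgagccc
HIST1H3F: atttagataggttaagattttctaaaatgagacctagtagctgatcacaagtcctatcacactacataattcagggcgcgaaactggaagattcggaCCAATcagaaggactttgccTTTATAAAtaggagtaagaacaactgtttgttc
HIST1H2BE: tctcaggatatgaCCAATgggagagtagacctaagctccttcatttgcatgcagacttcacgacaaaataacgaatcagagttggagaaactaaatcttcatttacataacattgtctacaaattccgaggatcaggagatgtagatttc

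The mitotic genes, all upstream of the annotated start as well, are KIF20B (chr10:89701440-89701589, plus strand), PRC1 (chr15:90994536-90994685, minus strand) and NUSAP1 (chr15:41332731-41332880, plus strand). Here capitals mark CCAAT and TTTGAA on either strand.
KIF20B: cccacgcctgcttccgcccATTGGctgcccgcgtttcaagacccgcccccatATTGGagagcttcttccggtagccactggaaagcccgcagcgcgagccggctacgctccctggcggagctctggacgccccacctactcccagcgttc
PRC1: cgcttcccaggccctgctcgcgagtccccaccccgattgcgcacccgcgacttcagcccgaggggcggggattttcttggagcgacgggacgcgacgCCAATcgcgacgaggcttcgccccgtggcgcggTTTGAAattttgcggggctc
NUSAP1: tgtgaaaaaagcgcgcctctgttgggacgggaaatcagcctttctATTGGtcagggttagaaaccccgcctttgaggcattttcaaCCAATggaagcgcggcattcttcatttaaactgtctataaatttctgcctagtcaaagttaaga

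CCAAT was counted in windows of 300 bases that run from before to just after the start, for genes with 1 window in the table. It was found in 47 of 56 matched histone promoters (83.9%) and in 31 of 39 matched promoters of mitotic genes (79.5%), beside 36.2% of 22114 windows in all. TATAAA was in 36 histone promoters (64.3%), 3 mitotic ones (7.69%) and 12.7% of all windows, while TTTGAA was in 29 mitotic promoters (74.4%), 20 histone promoters (35.7%) and 16% of all. TTTNNCGC, which holds the core of the site described for E2F factors, was in 19 of 34 matched promoters of DNA replication genes (55.9%), 32.1% of histone, 20.4% of ribosomal protein and 15.4% of mitotic promoters, beside 6.66% of all windows. Both strands were searched for every motif, and a match is a run of letters only.

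The genes of DNA replication, which load and fire origins and build the fork, also had a lower response in SUM149PT. Of 42 probes, 7 were lower at an unadjusted p under 0.05 (16.7%, against 4.77% of all probes) and 0 higher. Of the 42 differences 32 were below 0, with a median of -0.79. The median response was -0.68 in SUM149PT, 0.03 in BT549 and 0.04 in Hs578T. GMNN (geminin, which limits origin licensing to once per cycle) had counts of 78.1, 138.5 and 94.6 in siASAP1 against 395, 125 and 412 in siCtrl libraries of SUM149PT. Its counts were 357, 582 and 657 against 515, 421 and 444 in BT549, and 443, 326 and 517 against 387, 219 and 431 in Hs578T. The library labelled SUM149PT siCtrl replicate 2 again lay within the siASAP1 range, and the difference of -1.69 ± 0.54 (SE, limma, adjusted p = 0.32) became -2.25 (adjusted p = 0.027) without it.

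MCM7, a subunit of the replicative helicase, behaved alike. Its counts were 144, 333 and 156 against 705, 376 and 798 in SUM149PT, 301, 681 and 861 against 441, 360 and 481 in BT549, and 618, 489 and 916 against 826, 396 and 1197 in Hs578T. Only the groups of SUM149PT did not overlap, and the difference was -1.72 ± 0.59 (SE, limma, unadjusted p = 0.0099, adjusted p = 0.38). TIMELESS, a fork protection factor, was at 1.32, 0 and 0 in siASAP1 and 71.5, 2.73 and 67.1 in siCtrl libraries of SUM149PT, with a difference of -4.63 ± 1.54 (SE, adjusted p = 0.36). The mean log2 value of the list was 6.11, 5.92 and 6.37 against 6.94, 7.17 and 6.88 in SUM149PT, where the groups did not overlap. In BT549 (6.997, 7.08 and 7.08 against 6.77, 7.08 and 7.14) and Hs578T (6.24, 6.13 and 6.34 against 6.71, 6.04 and 6.45) they did. Left-out libraries moved the median between -0.99 and -0.71 and the number of lower probes between 5 and 12. The highest number was without the library labelled SUM149PT siCtrl replicate 2, in a fit with 10.2% of all probes lower. That library itself had the highest list mean of its group.

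BLM, the DNA helicase whose loss causes Bloom syndrome, is not in the replication list and was among the 22 calls. Its counts were 217, 280 and 149 in siASAP1 and 1047, 684 and 1057 in siCtrl libraries of SUM149PT, 192, 284 and 343 against 149, 246 and 214 in BT549, and 124, 110 and 140 against 111, 105 and 174 in Hs578T. In SUM149PT the lowest siCtrl library held over 2 times the reads of the highest siASAP1 library, and in the other lines the groups overlapped. The difference was -2.32 ± 0.44 (SE, limma adjusted p = 0.045).

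Of 48 probes for spindle and kinetochore genes, 14 had a lower response in SUM149PT at an unadjusted p under 0.05 (29.2%, against 4.77% of all probes) and 0 a higher one. The median difference was -0.76, and 39 differences were below 0. The median response was -1.09 in SUM149PT, -0.18 in BT549 and -0.39 in Hs578T. KIF20B, a mitotic kinesin, had counts of 496, 401 and 578 in siASAP1 and 1585, 944 and 1792 in siCtrl libraries of SUM149PT. The counts were 1171, 1424 and 1427 against 895, 1103 and 1122 in BT549, and 1035, 810 and 1358 against 1170, 776 and 2050 in Hs578T. They were separated in opposite directions in SUM149PT and BT549, and the difference was -1.58 ± 0.42 (SE, limma, unadjusted p = 0.0018, adjusted p = 0.22). PRC1, which bundles microtubules of the central spindle, differed by -1.43 ± 0.42 (adjusted p = 0.27) and NUSAP1, a spindle-associated protein, by -1.10 ± 0.33 (adjusted p = 0.29).

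The mean log2 value of the mitotic list was 7.50, 6.94 and 7.26 in siASAP1 and 8.01, 8.83 and 7.77 in siCtrl libraries of SUM149PT. It was 8.60, 8.08 and 7.99 against 8.30, 8.42 and 8.49 in BT549, and 7.80, 7.86 and 7.72 against 8.56, 8.08 and 8.01 in Hs578T. The groups were separated in SUM149PT and, by less, in Hs578T, and BT549 siASAP1 replicate 1 was the highest of its line. Unlike the histones, this list was higher in the library labelled SUM149PT siCtrl replicate 2 than in its replicates. Without that library the median was -0.69, with 13 probes lower, in a fit with 10.2% of all probes lower against 4.77% with 18 libraries. The number of lower probes lay between 9 (without SUM149PT siASAP1 replicate 3) and 16 over all left-out libraries.

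CDCA5 (sororin), which holds sister chromatids together until mitosis, is not in the mitotic list, nor is MELK, and it passed the adjusted test. Its counts were 13.2, 6.41 and 14.5 in siASAP1 and 75.8, 133 and 145 in siCtrl libraries of SUM149PT, 39.1, 61.4 and 43.8 against 22.5, 32.1 and 39.3 in BT549, and 32.9, 20.2 and 20.3 against 16.9, 7.34 and 13.8 in Hs578T. The groups did not overlap in SUM149PT, where siASAP1 was lower, nor in Hs578T, where it was higher, and in BT549 they overlapped by a narrow margin. The difference was -4.06 ± 0.66 (SE, limma adjusted p = 0.02), and 13 of 18 fits with a library left out still called it. MELK, a kinase of dividing cells, was at 0, 1.28 and 0 against 28.6, 42.8 and 11.2 in SUM149PT and between 10.0 and 63.3 in every library of the other lines, with a difference of -4.32 ± 0.85 (SE, limma adjusted p = 0.047).

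**Figure D3:**
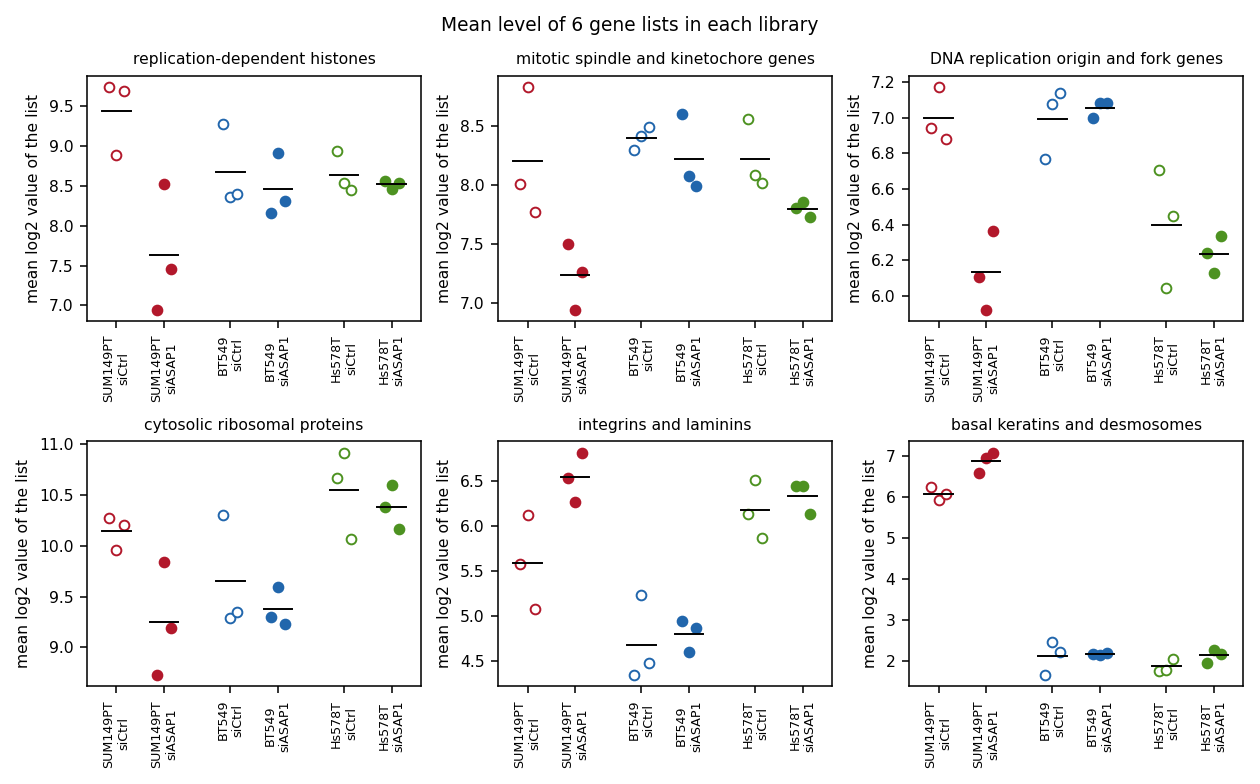
Mean log2 value of 6 gene lists (y axes) in each library, by line and siRNA (x axis). Open points are siCtrl and filled points siASAP1 libraries, replicates 1 to 3 from left to right, and bars are group means. The histone mean was 6.94 to 8.52 in siASAP1 and 8.89 to 9.74 in siCtrl libraries of SUM149PT.

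Among the regulators of the G1 to S transition, 6 of 26 probes were lower in SUM149PT at an unadjusted p under 0.05 (23.1%, against 4.77% of all probes). In the same test 1 was higher (3.85%, against 4.20% of all). The median difference was -0.48, or -0.66 with groups at 0 set to a floor of 3 reads per library. CCNE1, the cyclin that drives entry into S phase with CDK2, had counts of 6.62, 3.85 and 0 in siASAP1 against 25.7, 31.0 and 19.2 in siCtrl libraries of SUM149PT, and a difference of -4.12 ± 0.94 (SE, limma, unadjusted p = 0.00043, adjusted p = 0.12). In BT549 CCNE1 was at 32.0, 66.1 and 45.6 against 31.2, 20.1 and 42.1, and in Hs578T at 15.9, 18.5 and 52.3 against 15.2, 4.08 and 4.93. CDKN2D, a CDK4 and CDK6 inhibitor, differed in the same direction by -4.75 ± 1.16 (adjusted p = 0.15). CDK6, a G1 kinase, went the other way, with 2897, 1693 and 1994 in siASAP1 against 711, 565 and 667 in siCtrl libraries of SUM149PT and a difference of 1.79 ± 0.51 (adjusted p = 0.24). The list thus held members of opposite roles and opposite directions.

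Genes that make nucleotides, the building blocks of DNA and RNA, followed the replication genes. Of 24 probes, 5 were lower (20.8%, against 4.77% of all probes) and 0 higher at an unadjusted p under 0.05, 20 differences were below 0, and the median was -0.74. The median response was -1.34 in SUM149PT, -0.14 in BT549 and -0.24 in Hs578T. Within SUM149PT 13 of the 24 probes were lower at an unadjusted p under 0.05 (9.12% of all probes). In BT549 2 were (4.17% of all) and in Hs578T 5 (1.79% of all), so lower probes were not confined to SUM149PT. RRM2, the small subunit of ribonucleotide reductase, had 679, 991 and 662 in siASAP1 against 1512, 1344 and 1576 in siCtrl libraries of SUM149PT, and a difference of -1.61 ± 0.55 (SE, limma, unadjusted p = 0.0099, adjusted p = 0.38). DTYMK, which phosphorylates thymidylate, differed by -1.81 ± 0.71 (adjusted p = 0.46) and UMPS, of pyrimidine synthesis, by -1.80 ± 0.71 (adjusted p = 0.47). The number of lower probes lay between 1 and 8 with a library left out, and the median between -0.99 and -0.64.

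Of the genes for making protein, those of the cytosolic ribosome had the lower response in SUM149PT. At an unadjusted p under 0.05, 10 of 78 probes were lower (12.8%) and 0 higher, 67 differences were below 0, and the median was -0.68. The median response was -0.92 in SUM149PT, -0.26 in BT549 and -0.27 in Hs578T, so the median was below 0 in all 3 lines. Within SUM149PT 30 of the 78 probes were lower at an unadjusted p under 0.05 (9.12% of all probes). Within BT549 7 were (4.17% of all) and within Hs578T 2 (1.79% of all). RPL35, a protein of the large subunit, had counts of 4211, 7419 and 5610 in siASAP1 against 14900, 13410 and 16500 in siCtrl libraries of SUM149PT, 5503, 8005 and 7627 against 9336, 6320 and 5159 in BT549, and 4205, 3765 and 5251 against 5734, 6181 and 8242 in Hs578T. The groups did not overlap in SUM149PT and, by less, in Hs578T, and they overlapped in BT549. The difference was -1.13 ± 0.36 (SE, limma, unadjusted p = 0.0064, adjusted p = 0.32). Genes of ribosomal proteins have many processed pseudogenes, which can share reads.

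The ribosomal list was less stable than the histone list. Its mean log2 value was 8.73, 9.84 and 9.20 in siASAP1 and 10.28, 9.96 and 10.21 in siCtrl libraries of SUM149PT, and it was 10.31 in BT549 siCtrl replicate 1 against 9.29 and 9.35 in the other siCtrl libraries of BT549. The libraries that were high in ribosomal genes, SUM149PT siASAP1 replicate 2 and BT549 siCtrl replicate 1, were those that were high in histones within their groups, and the part of this shared variation in either result was not tested. The number of lower probes was 27 of 78 without the library labelled SUM149PT siCtrl replicate 2 (10.2% of all probes lower in that fit), 26 without SUM149PT siASAP1 replicate 2, 18 without BT549 siCtrl replicate 1 and 3 without SUM149PT siASAP1 replicate 1. It was 4 to 6 without SUM149PT siASAP1 replicate 3, SUM149PT siCtrl replicate 1 or 3, BT549 siASAP1 replicate 2, BT549 siCtrl replicate 2 or 3, Hs578T siASAP1 replicate 1 or Hs578T siCtrl replicate 1.

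Mitochondrial ribosomal proteins had a median difference of -0.42 with 5 of 70 probes lower and 1 higher, and nuclear-encoded subunits of the respiratory chain one of -0.38 with 2 of 75 lower and 0 higher. These counts were near the 4.77% and 4.20% of all probes, although 49 of 70 and 56 of 75 differences were below 0. The counts were 16 of 70 and 12 of 75 lower without the library labelled SUM149PT siCtrl replicate 2, where 10.2% of all probes were lower. Cytosolic chaperones, with the CCT ring that folds actin and tubulin, had a median of -0.39 with 3 of 31 lower and 2 higher, and 9 lower without that library. HSPA8, the constitutive HSP70, was at 1279, 2669 and 2238 in siASAP1 against 5709, 2924 and 5656 in siCtrl libraries of SUM149PT, with a difference of -1.34 ± 0.46 (SE, limma, unadjusted p = 0.0095, adjusted p = 0.38). Proteasome subunits did not share in this, with a median of 0.19 and 1 of 37 probes lower.

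In the other direction, the gene with the smallest p of all was SNAI2 (Slug), an EMT transcription factor that represses E-cadherin. Its more abundant probe had normalized counts of 234, 237 and 244 in siASAP1 and 110, 75.6 and 73.5 in siCtrl libraries of SUM149PT. In BT549 the counts were 643, 563 and 483 against 1874, 1392 and 1754, and in Hs578T 5200, 4842 and 4807 against 4698, 6253 and 4786. SNAI2 was thus higher after siASAP1 in SUM149PT, lower in BT549 and overlapping in Hs578T, with responses of 1.48 ± 0.25, -1.57 ± 0.25 and -0.07 ± 0.25 (SE). The difference in response was 2.30 ± 0.30 (SE, limma adjusted p = 0.0087). Against BT549 alone it was 3.05 (adjusted p = 0.0014) and against Hs578T alone 1.55 (adjusted p = 0.22), so the mean of the latter lines averages unlike responses. A second SNAI2 probe with few reads in SUM149PT gave 0.86 ± 1.34 (SE, unadjusted p = 0.53).

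SNAI2 did not stand for its family. Of the 9 probes for EMT transcription factors, 1 was higher (4.20% of all probes) and 0 lower (4.77% of all) at an unadjusted p under 0.05, and the median was 0.07. It was 0.64, with 2 higher (13.4% of all probes) and 2 lower (10.2% of all), without the library labelled SUM149PT siCtrl replicate 2. The median lay between -0.36 and 0.64 over all left-out libraries. The more abundant TWIST1 probe gave -0.61 ± 0.56 (SE, unadjusted p = 0.29), the other TWIST1 probe -1.46 ± 0.74 (unadjusted p = 0.065) and ZEB2 0.50 ± 0.46 (unadjusted p = 0.29). Mesenchymal genes went both ways, with 3 of 30 probes higher and 3 lower and a median of 0.18, which was 0.04 with groups at 0 set to the floor and -0.09 without that library.

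FN1 (fibronectin, a matrix protein bound by integrins) had the smallest p of the mesenchymal list, with a higher response in SUM149PT. The FN1 probe with the smallest p had counts of 4322, 5346 and 3493 in siASAP1 and 973, 753 and 836 in siCtrl libraries of SUM149PT, 8397, 11130 and 8641 against 6137, 6277 and 7517 in BT549, and 22440, 29650 and 16940 against 18990, 22110 and 14900 in Hs578T. The siASAP1 libraries lay above the siCtrl libraries in SUM149PT by several-fold and in BT549 by less, and overlapped with them in Hs578T. The difference was 1.96 ± 0.34 (SE, limma adjusted p = 0.03), and a second abundant FN1 probe gave 1.11 ± 0.30 (SE, adjusted p = 0.24). A further FN1 probe, with lower counts in the siCtrl libraries of every line, was tested and its difference is not given here. The abundant probe of VIM (vimentin, the intermediate filament of mesenchymal cells) went the other way, with 791, 1040 and 955 against 2908, 1994 and 2965 in SUM149PT and a difference of -1.74 ± 0.44 (SE, limma, unadjusted p = 0.0011, adjusted p = 0.17). The other VIM probe was at 0 in the siCtrl libraries of SUM149PT, and its difference is not given here.

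2 other called genes of shape and matrix had a higher response in SUM149PT. RND3, an atypical small GTPase that opposes actin contraction, had 229, 128 and 124 in siASAP1 against 11.4, 22.8 and 27.2 in siCtrl libraries of SUM149PT, 148, 124 and 179 against 111, 109 and 80.0 in BT549, and 277, 227 and 277 against 262, 578 and 330 in Hs578T, a difference of 2.89 ± 0.51 (SE, limma adjusted p = 0.031). MFAP2, a component of elastic microfibrils, had 341, 386 and 310 against 54.4, 54.7 and 4.80 in SUM149PT, 102, 74.6 and 73.0 against 166, 220 and 196 in BT549, and 653, 958 and 545 against 690, 900 and 320 in Hs578T, a difference of 4.21 ± 0.80 (SE, limma adjusted p = 0.045). MFAP2 was separated upward in SUM149PT and downward in BT549, and for RND3 the upward separation in SUM149PT was the larger. For both genes the siASAP1 level of SUM149PT came near or into the range of the mesenchymal-like lines.

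**Figure D4:**
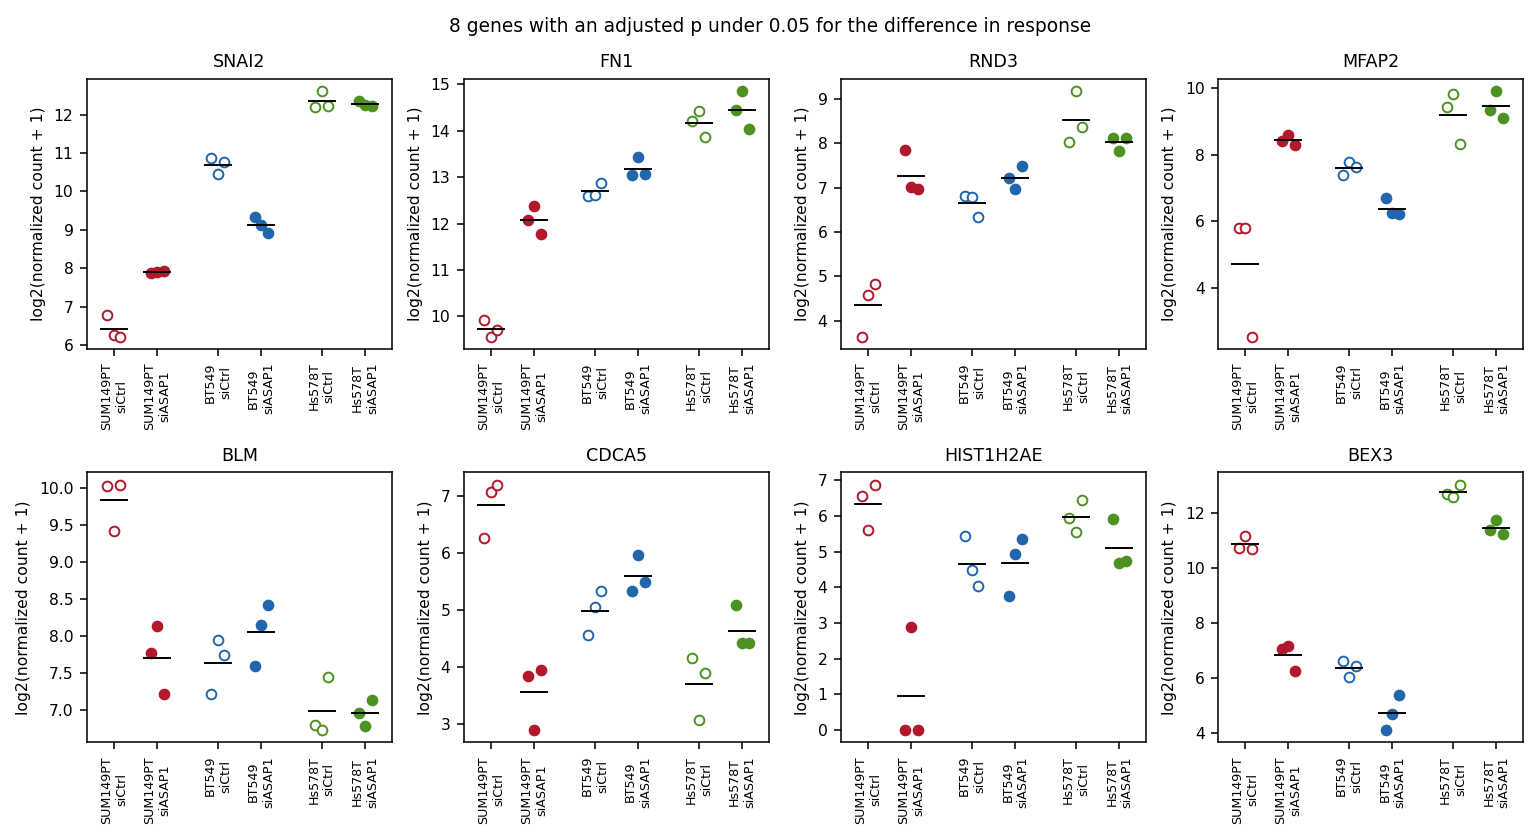
Level of 8 genes with an adjusted p under 0.05 in each library (y axes, log2 of the normalized count plus 1), by line and siRNA (x axis). Open points are siCtrl and filled points siASAP1 libraries, and bars are group means. SNAI2 had 234 to 244 normalized counts in siASAP1 and 73.5 to 110 in siCtrl libraries of SUM149PT.

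Integrins, the receptors for matrix, and laminins, the chains of the basement membrane, had a higher response in SUM149PT. Of 25 probes, 5 were higher at an unadjusted p under 0.05 (20%, against 4.20% of all probes) and 0 lower, with a median of 0.74. The median response was 0.77 in SUM149PT, 0.00 in BT549 and 0.10 in Hs578T. LAMA3, a chain of laminin-332, had 3452, 4609 and 4728 in siASAP1 against 402, 257 and 529 in siCtrl libraries of SUM149PT, with at most 104 normalized counts in any library of the other lines, and a difference of 2.94 ± 1.02 (SE, limma, unadjusted p = 0.011, adjusted p = 0.39). ITGB8, an integrin that activates latent TGF-beta, had 1934, 985 and 1700 against 356, 776 and 373, and a difference of 2.54 ± 0.76 (adjusted p = 0.27). Part of this came from BT549, near the floor at 1.78, 0 and 0 against 9.98, 5.03 and 0.70 (response -1.78). Against Hs578T alone the ITGB8 difference was 1.65 (limma adjusted p = 0.92).

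The groups of SUM149PT were separated for both genes. The list's mean log2 value was 6.54, 6.27 and 6.82 in siASAP1 and 5.58, 6.12 and 5.07 in siCtrl libraries of SUM149PT, without overlap. Without the library labelled SUM149PT siCtrl replicate 2 the median was 0.94 with 7 of 25 probes higher, in a fit with 13.4% of all probes higher. Over all left-out libraries it lay between 0.38 (without SUM149PT siCtrl replicate 3) and 1.18 (without SUM149PT siASAP1 replicate 2), and the number of higher probes between 2 (without SUM149PT siASAP1 replicate 3) and 7, with 3 without BT549 siCtrl replicate 2 or Hs578T siASAP1 replicate 1. Among probes with a mean count of at least 10 in each line, 1 was higher.

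Basal keratins and desmosomal genes, which give stratified epithelia their strength, had the highest median difference with 18 libraries (0.86). At an unadjusted p under 0.05, 3 of 18 probes were higher (16.7%, against 4.20% of all probes) and 1 lower (5.56%, against 4.77% of all). Without the library labelled SUM149PT siCtrl replicate 2 the median was 0.46, below those of interleukins (1.30), integrins and laminins (0.94) and complement genes (0.92). Their response was 0.96 in SUM149PT and 0.00 in BT549 and Hs578T, where most of the list was near 0, and with a mean of at least 10 required in each line the median turned to -0.37. KRT16, a keratin of stressed epithelia, had 51.6, 138.5 and 23.7 in siASAP1 against 0, 3.64 and 12.8 in siCtrl libraries of SUM149PT and 0 in all but 1 of the 12 other libraries, with a difference of 3.64 ± 1.02 (SE, limma, unadjusted p = 0.0024, adjusted p = 0.24). KRT16 reached the minimum mean count only through the siASAP1 libraries of SUM149PT. KRT15 was the lower member, and it was the mesenchymal-like lines that moved. Its counts were 8.89, 34.9 and 17.3 against 0 in 3 of 3 siCtrl libraries in BT549, at least 7.91-fold higher when the siCtrl libraries are set to the floor of 3 reads per library, and 41.9, 50.9 and 36.3 against 0, 14.7 and 0 in Hs578T. In SUM149PT it was at 52.9, 52.6 and 72.3 against 57.2, 31.0 and 25.6, where the groups overlapped. The difference was -3.47 ± 1.07 (SE, limma, unadjusted p = 0.0048, adjusted p = 0.29). Epithelial identity genes had a median of 0.16, with 2 of 29 probes higher and 0 lower.

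Targets of NRF2, the transcription factor of the antioxidant response, had 4 of 34 probes higher (11.8%, against 4.20% of all probes) and 0 lower, a median of 0.32, and 26 differences above 0. The members that moved were mostly AKR1C genes, aldo-keto reductases that reduce steroids and aldehydes and are near-identical in sequence, so that they can share reads. AKR1C1 passed the adjusted test, with 333, 244 and 449 in siASAP1 against 28.6, 45.6 and 15.99 in siCtrl libraries of SUM149PT, 17.8, 33.0 and 21.0 against 146, 13.2 and 29.5 in BT549, and 1456, 877 and 739 against 1528, 1426 and 867 in Hs578T. The groups were separated in SUM149PT and overlapped in the other lines, and the difference was 4.07 ± 0.80 (SE, limma adjusted p = 0.046). AKR1C2 gave 4.78 ± 1.45 (adjusted p = 0.28) and the 2 probes of AKR1C3 2.28 ± 0.92 (adjusted p = 0.48) and 1.87 ± 1.31 (adjusted p = 0.68).

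Endoplasmic reticulum chaperones and genes of the unfolded protein response had 3 of 21 probes higher (14.3%, against 4.20% of all probes) and 0 lower. Their median of 0.53 became 0.19 without the library labelled SUM149PT siCtrl replicate 2. Here the mesenchymal-like line BT549 contributed. CRELD2, a secreted chaperone of the ER, had 81.8, 155 and 123 in siASAP1 against 225, 231 and 286 in siCtrl libraries of BT549 and 298, 462 and 371 against 259, 148 and 337 in SUM149PT, and the groups overlapped in SUM149PT but not in BT549. Its difference was 1.39 ± 0.47 (SE, limma, unadjusted p = 0.0093, adjusted p = 0.38). MANF, an ER stress factor, gave 1.35 ± 0.55 (adjusted p = 0.48). DDIT3 (CHOP), of the integrated stress response, was counted in another list and had 585, 563 and 568 against 140, 148 and 104 in SUM149PT, with a difference of 1.83 ± 0.58 (adjusted p = 0.30). That list, of serine, one-carbon and ATF4 genes, had a median of -0.10.

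The lists of chemokines, interleukins, NF-kB genes and immediate early genes had a positive median response in all 3 lines. The counts of higher and lower probes below stand beside 4.20% higher and 4.77% lower over all probes. The median response of 8 chemokine probes was 1.04 in SUM149PT, 2.16 in BT549 and 0.72 in Hs578T, and the median difference was 0.18 (0.45 with groups at 0 set to the floor, 0.04 without the library labelled SUM149PT siCtrl replicate 2). That of 28 probes for NF-kB feedback and signaling genes was 1.14, 0.82 and 0.43, with a median difference of 0.17 (0.47 without that library) and 2 probes higher. Immediate early genes of AP-1 and the DUSP phosphatases had 0.77, 1.30 and 0.26, and 0 of 26 probes were higher and 1 lower. Interleukins and colony stimulating factors had 1.72, 1.14 and 0.92, a median difference of 0.63 (0.82 at the floor, 1.30 without that library), and 2 of 10 probes higher. IL6 was at 487, 437 and 403 in siASAP1 against 31.5, 30.1 and 32.0 in siCtrl libraries of SUM149PT, 60.4, 50.0 and 58.4 against 1.25, 20.1 and 14.0 in BT549, and 11.3, 41.6 and 100.2 against 53.2, 72.6 and 27.6 in Hs578T, a difference of 2.63 ± 0.96 (SE, limma, unadjusted p = 0.014, adjusted p = 0.42). CXCL8, a neutrophil chemokine, gave 2.02 ± 0.67 (adjusted p = 0.35), and for both genes the groups were separated in SUM149PT and BT549 and overlapped in Hs578T. Interferon-stimulated genes had a median response of 0.29, -0.04 and 0.49, with 4 of 33 probes higher and 3 lower and a median difference of -0.15, which was -0.03 when libraries were scaled by their totals. Complement components and regulators had 0.74, -0.16 and 0.07, a median difference of 0.58 (0.92 without that library), and 1 of 14 probes higher and 2 lower.

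For some processes little difference in response was found, which does not show that the responses were equal. With 18 libraries, 4.20% of all probes were higher and 4.77% lower. Sterol synthesis and uptake genes had a median response of -0.47 in SUM149PT, -0.85 in BT549 and -0.56 in Hs578T, and 0 of 21 probes passed an unadjusted p of 0.05 for the difference in either direction. Without the library labelled SUM149PT siCtrl replicate 2, 1 probe was higher and 0 lower, and the median difference was 0.15. Genes related to ASAP1 by function had small differences as well, with medians of 0.06 for Arf GTPases and their regulators (1 of 30 probes higher, 0 lower), 0.16 for focal adhesion genes and partners of ASAP1 (1 of 22 higher, 0 lower) and -0.15 for coat proteins and cargo genes of ER to Golgi transport (3 of 36 higher, 1 lower). Without that library these medians were -0.29, -0.05 and -0.215. In that fit 3, 1 and 7 probes were higher (13.4% of all probes) and 2, 3 and 2 lower (10.2% of all). With libraries scaled by their totals, the medians of the sterol, Arf, focal adhesion and transport lists were 0.28, 0.15, 0.28 and -0.03, beside 0.15 for all probes. Hypoxia targets had a median of 0.39 that came from BT549 (-0.77) rather than from SUM149PT (-0.05), with 1 of 21 probes higher and 2 lower.

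**Figure D5:**
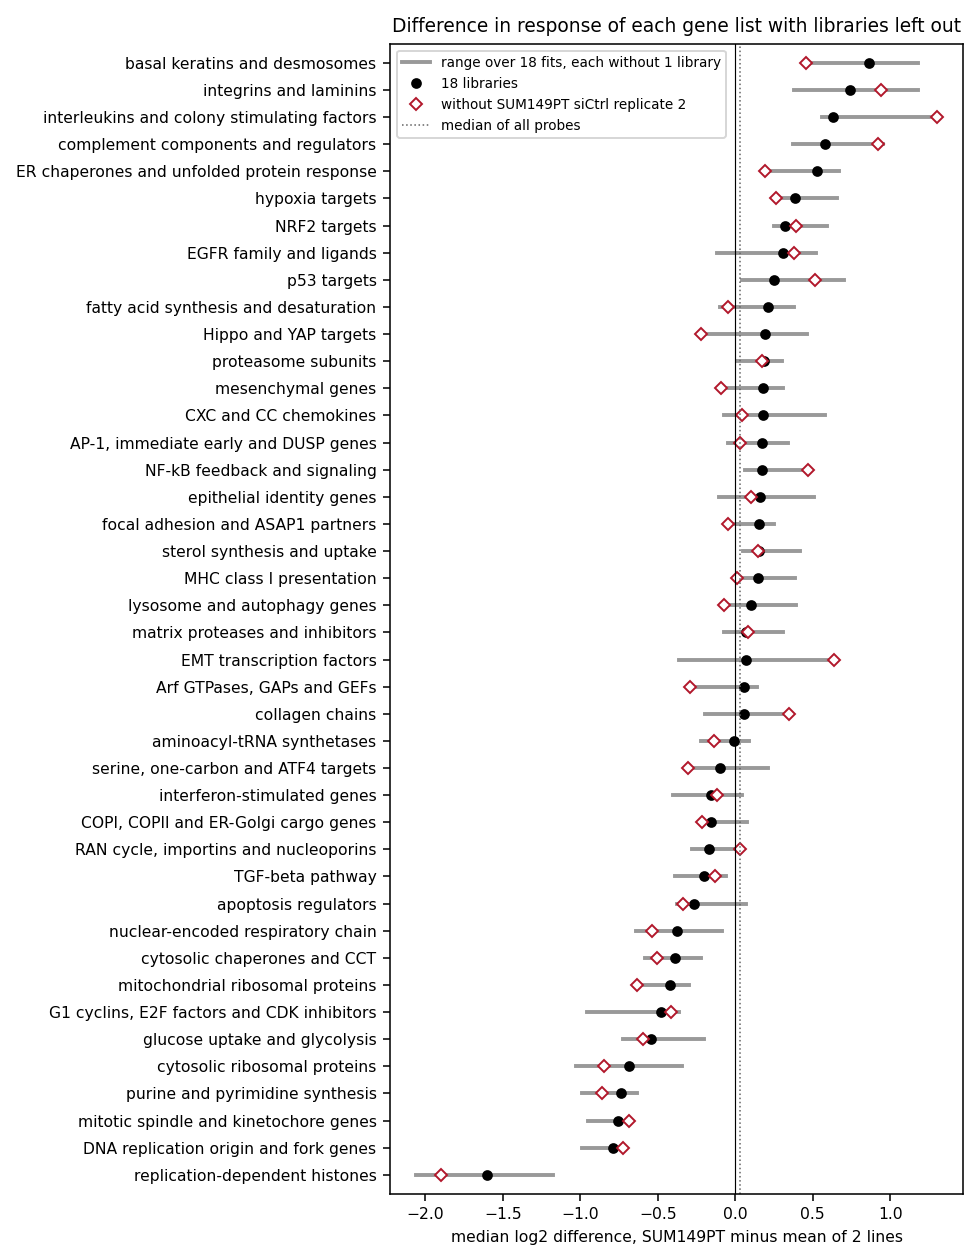
Median difference in response of 42 gene lists (x axis, log2, SUM149PT minus the mean of BT549 and Hs578T). Black points use 18 libraries, grey bars span the 18 fits that each leave out 1 library, and open diamonds are without the library labelled SUM149PT siCtrl replicate 2. The histone median was -1.60, with a range from -2.06 to -1.17.

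The other called genes belonged to no single process. 2 genes were read in SUM149PT alone, MUC16 (the mucin CA125), with 269, 162 and 151 in siASAP1 against 12.87, 8.199 and 9.591 in siCtrl libraries, and S100A9 (a calprotectin subunit), with 54.2, 145 and 32.9 against 4.29, 2.73 and 0. Both were at 0 in all 12 libraries of BT549 and Hs578T, so their differences of 4.09 ± 0.64 and 4.59 ± 0.84 (SE, limma adjusted p = 0.02 and 0.041) are the response of SUM149PT itself. Both reached the minimum mean count only through the siASAP1 libraries of SUM149PT, with group means of 194 and 77.3 against 10.2 and 2.34 in siCtrl. The shared spread also includes the groups constant at 0, so these p-values are no separate support.

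3 more genes were at 0 in all siCtrl libraries of SUM149PT. NR3C2, the mineralocorticoid receptor, reached 31.75, 15.38 and 10.51 after siASAP1, at least 4.88-fold higher than the floor, against 1.78, 0 and 0 in siASAP1 and 2.50, 17.6 and 13.3 in siCtrl libraries of BT549, where it was lower, and with overlap in Hs578T (limma adjusted p = 0.02). ANXA10, an annexin, was at least 3.55-fold higher (adjusted p = 0.045) and THSD7A, a membrane protein of endothelium and podocytes, at least 3.42-fold higher (adjusted p = 0.045), with at most 21.2 and 19.7 normalized counts in SUM149PT.

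Several called genes were lower after siASAP1 in SUM149PT and were read under both siRNAs in the other lines. BOC, a Hedgehog co-receptor, had 3.97, 0 and 1.31 in siASAP1 against 20.02, 44.6 and 32.0 in siCtrl libraries of SUM149PT, 57.8, 58.5 and 40.2 against 41.2, 62.3 and 35.8 in BT549, and 740, 589 and 793 against 485, 587 and 668 in Hs578T, a difference of -4.04 ± 0.65 (SE, limma adjusted p = 0.02). GXYLT2, a xylosyltransferase, SNAPIN, a SNARE-associated protein, and NRGN (neurogranin) were at 0 in 3 of 3 siASAP1 libraries of SUM149PT, at least 4.41-fold, 7.72-fold and 4.83-fold lower than siCtrl with the floor of 3 reads per library (limma adjusted p = 0.031, 0.046 and 0.046). Their siCtrl means in SUM149PT were 17.3, 30.3 and 18.9 normalized counts, so the values of 0 give a bound only. GUSB, the lysosomal beta-glucuronidase often used as a reference gene, had 123, 131 and 106 against 548, 375 and 456 in SUM149PT, 217, 205 and 190 against 236, 118 and 144 in BT549, and 204, 154 and 218 against 156, 176 and 234 in Hs578T, a difference of -2.11 ± 0.40 (SE, limma adjusted p = 0.045). KDELC2, an O-glucosyltransferase of the ER, differed by -2.35 ± 0.44 (SE, limma adjusted p = 0.045).

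BEX3, a small adaptor of neurotrophin receptor signaling, and RGS3, which switches off G protein signaling, responded in the mesenchymal-like lines as well. BEX3 was lower after siASAP1 in every line, with 131, 140 and 74.9 against 1700, 2279 and 1653 in SUM149PT, 16, 24.5 and 40.2 against 97.3, 64.1 and 84.2 in BT549, and 2687, 3413 and 2443 against 6658, 6223 and 8427 in Hs578T. The groups were separated in all 3 lines, and the response was larger in SUM149PT (-4.05) than in BT549 (-1.64) and Hs578T (-1.32), a difference of -2.57 ± 0.43 (SE, limma adjusted p = 0.022). RGS3 was higher after siASAP1 in BT549, with 355, 381 and 585 against 144, 129 and 168, and in Hs578T, with 5.67, 8.10 and 6.40 against 0 in 3 of 3 libraries (at least 2.54-fold). In SUM149PT it was at 384, 333 and 417 against 655, 484 and 617, and the difference was -2.87 ± 0.46 (SE, limma adjusted p = 0.02). Of the 22 called probes, 17 had a group mean of at least 10 in every line.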

How the data were processed

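TempO-Seq read counts per probe were divided by the authors' DESeq2 size factors and deposited as log2 of the quotient plus 1. The submitters' processing notes name bcl2fastq, Bowtie and DESeq2, and the genome build is not given in the sources used here. Undoing the log2 gave whole multiples of 1 step per library for 100% of values (tolerance 0.01 reads), from which depths were taken. Probes averaging 10 or more normalized counts (10475) were fitted by limma 3.58.1 in R 4.3.3 (1 mean per group, 18 libraries, intensity trend), with Benjamini-Hochberg adjustment over all probes, and scripts were tested on simulated data. Groups came from the labels. The contrast and the 42 gene lists were chosen with earlier results of these data known. Named genes were ASAP1, markers, the 20 called probes with the smallest p, the 12 probes per direction with the smallest p read in every line, and 3 members per list. SNAPIN and MELK, the other called probes, were named after their values were seen, as were further list members. Replicate libraries differed by more than counting noise (chi-square per degree of freedom 10.1 to 247). Promoter windows came from RefSeq on GRCh38.p14. Alternatives covered scaling, filters, pseudocounts 0.1 and 8, weights, the trend, summed probes, the replicate block and left-out libraries.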

Additional observations from a re-analysis of the deposited data

Results flagged for a closer look

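The test of the difference in response itself (limma, adjusted p under 0.05) singled out 22 probes, for which the response to siASAP1 in SUM149PT was unlike the mean response of BT549 and Hs578T. The difference was positive for SNAI2 (2.30), MUC16 (4.09), NR3C2 (5.37), FN1 (1.96), RND3 (2.89), S100A9 (4.59), MFAP2 (4.21), ANXA10 (4.40), THSD7A (4.49) and AKR1C1 (4.07), on the log2 scale.

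It was negative for BOC (-4.04), RGS3 (-2.87), CDCA5 (-4.06), BEX3 (-2.57), GXYLT2 (-4.07), KDELC2 (-2.35), BLM (-2.32), GUSB (-2.11), HIST1H2AE (-4.96), NRGN (-4.26), SNAPIN (-4.90) and MELK (-4.32). Values of genes with a group at 0 depend on the pseudocount. MUC16 and S100A9 reached the minimum mean count only through the siASAP1 libraries of SUM149PT. Without the library labelled SUM149PT siCtrl replicate 2, NRGN (adjusted p = 0.051) and MELK (adjusted p = 0.056) were no longer called. With voom weights 1 of the 22 was called, and leaving out 1 library gave between 1 and 90 calls. The cause of any of these differences was not tested.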

How the results depend on the processing

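The 22 calls were 11 at a minimum mean of 50, 6 with a mean of at least 10 in each line, 1 with voom weights, 1 to 90 with 1 library left out and 1072 without both SUM149PT siCtrl replicate 2 and BT549 siASAP1 replicate 1. Left-out libraries moved the unadjusted counts to 262 to 1399 higher and 331 to 1066 lower, and leaving out both gave 1826 and 1420. Against BT549 alone the range was 642 to 2449 (both, 3519), and against Hs578T alone 451 to 1505 (both, 1798), with 980 probes without a filter and 366 at a minimum of 50. Between BT549 and Hs578T it was 204 to 515 (both, 848), with 596 without a filter, 171 at a minimum of 50 and 132 with at least 10 in each line.

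The ASAP1 difference lay between -1.17 and 0.22 with 1 library left out, was 0.04 and 0.09 without SUM149PT siASAP1 replicate 3 and siCtrl replicate 1, and was -1.35 without both. The integrin and laminin median lay between 0.38 and 1.18 and was 1.29 at a minimum of 50, and the number of higher probes was 2 to 7, 1 with at least 10 in each line and 2 at a pseudocount of 0.1. The numbers of lower probes were 3 to 27 for ribosomal proteins (4 without the intensity trend, both left out 31), 5 to 12 for replication genes (both, 13), 9 to 16 for mitotic genes and 16 to 46 for histones. The replication median lay between -0.99 and -0.71. The histone median lay between -2.06 and -1.17, and its sign was the same under every alternative run. The causes were not tested.

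The deviations of same-numbered libraries had correlations of -0.65 to -0.32 in SUM149PT, -0.35 to 0.11 in BT549 and 0.10 to 0.35 in Hs578T. The numbers thus did not pair libraries in SUM149PT or BT549, while in Hs578T all correlations were positive. With the replicate block there were 0 calls at an adjusted p under 0.05 (limma) and 340 higher and 393 lower probes at an unadjusted p under 0.05, all 22 called probes kept their sign and an unadjusted p under 0.05, and 4 ribosomal probes were lower under the block. The smallest adjusted p under the block was 0.28.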
